A study of Homo sapiens with 4 samples.

Results

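Reads of 5 mature miRNAs were examined for where their 5p ends lie: hsa-miR-101-3p, hsa-miR-101-5p, hsa-miR-140-3p, hsa-miR-140-5p and hsa-miR-203a-3p. They were chosen by name, as arms of 3 miRNAs known for alternative 5p starts, out of the 1644 miRNA names in the table of counts. The table lists isoforms, that is, each miRNA name with a 5p end and a 3p end given as offsets from the annotated ends, and the 5 miRNAs account for 94 of its 12689 isoforms. The cells were HCT116, an established human colorectal carcinoma line, transfected with pcDNA3 plasmids. The empty vector library came from cells given pcDNA3 with no insert. The wild-type library came from cells given wild-type pri-mir-30a, pri-mir-142, pri-mir-30d, pri-mir-576, pri-mir-885, pri-mir-128-1, pri-mir-342 and pri-mir-200b. The mixture listed for the mutant 1 library held variants of these 8, with changed base pairs in the seed or the middle of the stem: pri-mir-30a (seedW_56), pri-mir-142 (seedW_67), pri-mir-30d (seedM_6), pri-mir-576 (seedM_6), pri-mir-885 (midM_1011), pri-mir-128-1 (midM_none), pri-mir-342 (midM_none) and pri-mir-200b (midW_none). The mixture listed for the mutant 2 library held pri-mir-342 (midM_910) with empty vector. All mixtures but the empty vector also held pri-mir-16-1. Mutant labels were matched to the mixtures in the order in which the study lists them, and the variant sequence of miR-30a had 516138 reads in mutant 1 against at most 29 in any other library, while that of the 3p arm of miR-342 (midM_910) had 47789 in mutant 2 against at most 4. The listed mixtures do not account for all variant reads. A variant of the 3p arm of miR-128-1 (midMnone-1) had 65088 reads in mutant 2 against at most 3 in any other library, a variant of let-7d had 5966 reads in mutant 2 and another 290 in mutant 1, and a variant of miR-182 had 155 in mutant 1. What mutant 2 was given beyond its listed mixture is not known here, and all deposited plasmid sequences were treated as transfected.

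None of these plasmids encodes any of the 5 miRNAs, so their reads were endogenous and the 4 libraries served as repeated measurements of the same cell line under different transfections. There was 1 library for each condition, hence no replicate and no test between conditions. All intervals are at 95% and cover counting error only. Total miRNA reads ranged from 14544516 to 19834361 for each library, of which 12241852 to 15134221 were of untransfected miRNAs, meaning names that no deposited plasmid sequence encodes. Of the marker miRNAs, miR-200c-3p, miR-141-3p and miR-200a-3p of epithelial cells had 21063 to 156581 reads in every library, and miR-192-5p of the intestine had 25122 to 40180. miR-194-5p, also intestinal, had 413 to 521 reads. The liver miRNA miR-122-5p had 8 to 15 reads and the myeloid miR-223-3p had 7 to 28, and neuronal miR-124-3p and muscle miR-1-3p were at 0.

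A miRNA is cut from its hairpin in 2 steps. DROSHA, in the Microprocessor complex, releases the hairpin from the primary transcript and so sets the 5p end of the 5p arm and the 3p end of the 3p arm. DICER then removes the loop and sets the 3p end of the 5p arm and the 5p end of the 3p arm. Target recognition rests mainly on the seed, bases 2 to 8 from the 5p end, so a shift of the 5p end by a single nucleotide changes the seed. miR-101 is known as a repressor of EZH2, a histone methyltransferase. miR-140 is best known for its role in cartilage, and miR-203a for limiting the growth of epithelial stem cells in the skin.

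The sequences below show how the start sets the seed. They are read from the RefSeq hairpins (build GRCh38.p14), whose sequence is identical to the genome at these places, and capitals mark the seed. The offset of the start is counted from the annotated 5p end, positive downstream.
hsa-miR-140-3p, start 0: uACCACAGgguagaaccacggac
hsa-miR-140-3p, start +1: aCCACAGGguagaaccacggac
hsa-miR-140-3p, start +2: cCACAGGGuagaaccacggac
hsa-miR-203a-3p, start 0: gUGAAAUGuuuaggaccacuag
hsa-miR-203a-3p, start +1: uGAAAUGUuuaggaccacuag
hsa-miR-101-5p, start -1: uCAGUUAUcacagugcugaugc
hsa-miR-101-5p, start 0: cAGUUAUCacagugcugaugc
hsa-miR-101-3p, start 0: uACAGUACugugauaacugaag
hsa-miR-140-5p, start 0: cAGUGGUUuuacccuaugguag
Each line is the isoform with the most reads at that start over the 4 libraries. None of the 9 seeds was shared with another of the 2370 human mature miRNA names in the reference.

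The hairpins are shown because the offsets refer to the ends of their arms, which are in capitals.
MIR140, chr16:69933081-69933180, + strand: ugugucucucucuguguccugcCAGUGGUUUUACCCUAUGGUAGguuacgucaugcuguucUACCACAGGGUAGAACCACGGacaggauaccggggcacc
MIR203A, chr14:104117405-104117514, + strand: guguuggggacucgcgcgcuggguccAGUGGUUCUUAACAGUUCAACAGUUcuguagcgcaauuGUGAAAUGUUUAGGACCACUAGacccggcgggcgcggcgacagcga
MIR101-1, chr1:65058434-65058508, - strand: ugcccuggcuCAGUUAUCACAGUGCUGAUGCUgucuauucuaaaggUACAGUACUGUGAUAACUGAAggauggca
MIR101-2, chr9:4850297-4850375, + strand: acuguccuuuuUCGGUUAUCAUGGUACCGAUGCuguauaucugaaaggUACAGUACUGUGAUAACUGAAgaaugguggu
In GENCODE release 44, MIR140 lies within WWP2, MIR101-1 within JAK1 and MIR101-2 within RCL1, in each case on the strand of the host gene and overlapping none of its exons, that is, in introns. An lncRNA is also annotated at MIR101-2, on the other strand. MIR203A lies in no host gene, and MIR203B is annotated on the other strand at the same place.

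Some features of the table bear on these miRNAs and are given before the results. All 31 isoforms of hsa-miR-203a-3p, with 55143 reads over the 4 libraries, were listed again with the same genome ends and the same reads in every library as isoforms of miR-203b-5p on the opposite strand, so reads of these names cannot be told apart in the table. On the opposite strand a start is an end: read as miR-203b-5p, the starts given here for hsa-miR-203a-3p would be 3p ends, and its 3p ends, of which the second most frequent held 25.6 to 27.5 percent of reads, would be starts. Starts, ends and seeds of hsa-miR-203a-3p are given as the table lists that name. The 12 isoforms of miR-203a-5p, with 2149 reads, were likewise all listed under miR-203b-3p. For hsa-miR-101-3p, the hairpins MIR101-1 and MIR101-2 hold the same sequence up to 1 nt past the annotated 3p end, and forms that end there or before match 2 places in the genome. None of the 9354 reads listed for this miRNA ended at or before the annotated 3p end, and all ended 1 to 4 nt past it. Of 16 combinations of start and library, 9 had the same number of reads at 1 nt and at 2 nt past the end, and at start 0 these numbers differed by 6 to 25 reads. Whether reads of this miRNA are missing from the table, or are listed more than once, was not tested, so its level could be too low or too high. Its starts were read from forms ending past the annotated end only.

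Second 5p starts were present in hsa-miR-140-3p, hsa-miR-203a-3p and hsa-miR-101-5p and were not detected at an appreciable share in hsa-miR-101-3p and hsa-miR-140-5p. With a second start taken as at least 10 percent of an arm's reads, 3 of the 5 miRNAs had one in each of the 4 libraries. By the position of the arm, DICER sets the 5p end of hsa-miR-140-3p and DROSHA that of hsa-miR-101-5p. For hsa-miR-203a-3p it would be DICER. Read as miR-203b-5p, the same positions would be 3p ends of a 5p arm, which DICER also sets. The starts of such reads, listed here as 3p ends, would then be set by DROSHA, and the names cannot be told apart. Among 283 untransfected arms with at least 200 reads in every library, which include all of the 5 but hsa-miR-101-5p, 22.3% had a second start in the empty-vector library, 22.3% in the wild type, 21.6% in mutant 1 and 22.3% in mutant 2. Second starts were thus a feature of 61 to 63 of these arms in each library, and of 54 arms in all 4. They were more frequent among arms named 3p (28.5 to 30.1 percent of 123) than among arms named 5p (14.7 to 16.9 percent of 136).

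The most frequent start of hsa-miR-140-3p was not the annotated one but the base after it. Start +1 took 69.2% of reads in the empty-vector library (68.4 to 70, 12337 reads), 68.2% in the wild-type one (67.4 to 69.1, 10963 reads), 63.8% in mutant 1 (62.9 to 64.8, 9765 reads) and 67.8% in mutant 2 (67 to 68.6, 13098 reads). The annotated start took 26.2%, 27.4%, 31.7% and 28.3%, and start +2 took 4.45%, 4.17%, 4.30% and 3.81%, in the same order. Mutant 1 was lowest at +1 and highest at 0, and its intervals did not overlap those of the other 3 libraries. The seed printed above for start +1 was thus the one carried by most reads of this miRNA in every library. Of the 283 arms, 14 to 19 had a larger second start than hsa-miR-140-3p. The isoform from +1 to 2 nt past the annotated 3p end, 22 nt long, alone held 59.3%, 57.3%, 52.2% and 56.0% of its reads.

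Reads of hsa-miR-203a-3p were almost evenly divided between the annotated start and the next base. Start 0 took 53.3% in the empty-vector library (52.5 to 54.1, 15659 reads), 53.9% in the wild-type one (53.0 to 54.7, 13534 reads), 56.7% in mutant 1 (55.7 to 57.6, 11258 reads) and 53.7% in mutant 2 (52.9 to 54.5, 14692 reads). Start +1 took 45.7%, 45.2%, 42.1% and 45.3%. Only 0 to 3 of the 283 arms had a larger second start, so this was among the most evenly split arms in each library. Starts -1 and -2 together with +2 and beyond held little: the largest of these shares was 0.711%, at -1 in mutant 1. Its 22 nt isoform from 0 to the annotated end held 33.1%, 32.3%, 36.5% and 34.8% of reads.

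hsa-miR-101-5p was also split, between the annotated start and the base before it, but on few reads. There were 104 reads in the empty-vector library, 92 in the wild type, 108 in mutant 1 and 130 in mutant 2. Start -1 took 59.6% (50 to 68.5), 41.3% (31.8 to 51.5), 42.6% (33.7 to 52) and 50% (41.5 to 58.5) of them, and all the others started at 0. By read counts, the more frequent of these 2 starts was -1 in the empty-vector library, 0 in the wild-type and mutant 1 libraries, and neither in mutant 2. The wild-type and mutant intervals include 50% and that of the empty vector begins at 50%, so a change of order between libraries is not settled. This arm comes from MIR101-1 alone. The arm at the same place in MIR101-2, miR-101-2-5p, has another sequence and had 8 to 21 reads in each library, of which 61.9 to 90.9 percent started at +1.

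hsa-miR-101-3p, as far as its listed forms show, and hsa-miR-140-5p had no second start of 10 percent or more. hsa-miR-101-3p started at 0 in 98.3% of 2247 reads in the empty-vector library, 98.3% of 1930 in the wild-type library, 98.1% of 2461 in mutant 1 and 98.2% of 2716 in mutant 2. Its second most frequent start was +2, with 0.801%, 0.829%, 1.02% and 0.810% of reads (16 to 25 reads), and start -1 held 0.267%, 0.104%, 0.650% and 0.295% (2 to 16 reads). hsa-miR-140-5p started at 0 in 99.3% of 571, 99.8% of 496, 98.7% of 797 and 99.4% of 705 reads, and all others started at +1. Both lay near or below the middle of the 283 arms, with 151 to 256 arms having a larger second start. The median second start of all these arms was 1.45 to 1.71 percent.

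**Figure D1:**
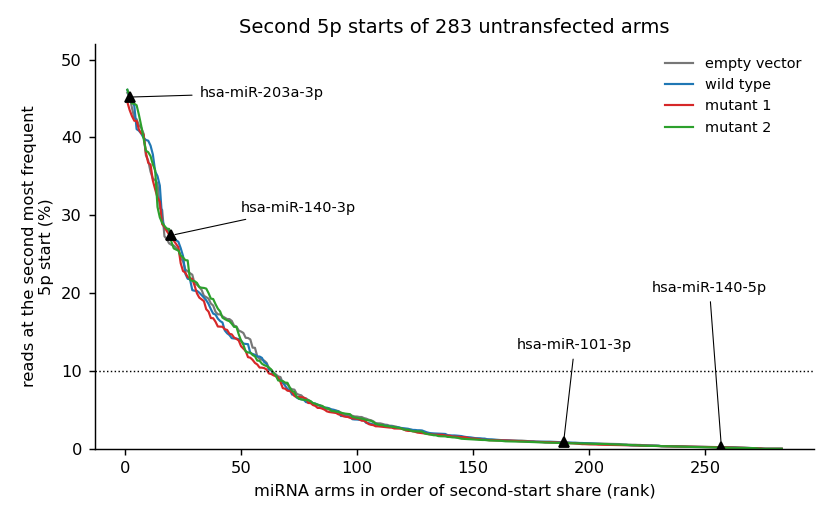
Share of reads at the second most frequent 5p start (y axis, percent) for 283 untransfected arms ordered by that share (x axis, rank), 1 line for each library. Triangles mark the wild-type values of hsa-miR-203a-3p (45.2%), hsa-miR-140-3p (27.4%), hsa-miR-101-3p (0.829%) and hsa-miR-140-5p (0.202%), and the dotted line is at 10 percent.

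Other miRNAs generally known for alternative starts were looked up in the same libraries. miR-183-5p, with 136279 to 173811 reads, started at 0 in 55.8%, 55.5%, 59.1% and 56.7% of reads and at +1 in 43.8%, 44.1%, 40.4% and 42.9%, in the order of the libraries above, shares close to those of hsa-miR-203a-3p. miR-411-5p, with 440 to 816 reads, started at 0 in 57.3 to 62.1 percent and at -1 in 37.0 to 42.7 percent. miR-378a-3p, with 95 to 138 reads, had a second start at -2 of 11.6 to 19 percent. miR-9-5p (7 to 10 reads) and miR-223-3p were too rare to read, miR-124-3p and miR-133a-3p were at 0, and both arms of miR-142 are encoded by transfected plasmids. Outside this list, the arms with start shares most like those of hsa-miR-203a-3p were miR-1307-3p, at a distance of 6.36 points, and miR-126-3p, at 7.89 points. The distance is the share of reads that would have to be moved to another start to make the distributions equal, over the mean of the 4 libraries. For hsa-miR-140-3p they were miR-330-3p (4.65 points), which started at +1 in 63.5% of reads, miR-5094 (5.51) and miR-502-3p (7.76). Arms that start almost always at 0 were nearest to hsa-miR-101-3p (miR-221-5p, 0.631 points) and hsa-miR-140-5p (miR-671-5p, 0.00167 points).

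The 3p ends of hsa-miR-140-3p depended on the 5p start. Most of its reads ended 2 nt past the annotated 3p end: 80.4%, 77.4%, 76.2% and 77.3% in the order of the libraries above. Of reads starting at +1, 85.7%, 84%, 81.9% and 82.7% ended there, against 64.5%, 59.1%, 63.1% and 62.7% of reads starting at 0. The difference was 21.2 points in the empty-vector library (19.4 to 23), 24.9 in the wild-type one (22.9 to 26.8), 18.8 in mutant 1 (16.8 to 20.7) and 20 in mutant 2 (18.3 to 21.8). Reads starting at 0 more often ended 1 nt past the annotated end (26.4 to 29.2 percent, against 7.48 to 8.78 percent of those starting at +1). Both starts thus had the same most frequent 3p end and differed in length. Reads starting at 0 were 22.7 to 22.8 nt long on average, those starting at +1 about 22 nt, and those starting at +2 about 21 nt.

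hsa-miR-203a-3p showed the same order, with its own ends. Of all its reads, 57.2%, 56.7%, 58.3% and 59.4% ended at the annotated 3p end, 25.6 to 27.5 percent ended 1 nt past it, and 9.34 to 12.8 percent ended 2 nt before it. Among reads starting at +1, the share ending 1 nt past the annotated end was larger than among reads starting at 0, by 18.1 points in the empty-vector library (16.7 to 19.5), 18.6 in the wild-type one (17.2 to 20.1), 20.5 in mutant 1 (18.8 to 22.2) and 18 in mutant 2 (16.6 to 19.4). Among reads starting at 0, the share ending 2 nt before it was larger, at 12.4 to 17.7 percent against 4.83 to 8.12 percent. In both miRNAs, reads that started 1 nt later also ended later on average, by less than 1 nt: the mean 3p end of hsa-miR-203a-3p was -0.212, -0.238, -0.109 and -0.141 nt for start 0 and 0.146, 0.188, 0.247 and 0.179 nt for start +1. Read lengths were limited to 18 to 26 nt. For hsa-miR-203a-3p, reads starting at +1 and ending 2 nt before the annotated end are 19 nt long and those ending 3 nt before it 18 nt, so shorter forms of start +1 could not be counted. The part of this limit in the comparison of short ends was not tested.

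The most frequent 3p end of hsa-miR-101-5p was the same for both of its starts. It ended 1 nt before the annotated end in 67.7%, 63.2%, 63.0% and 70.8% of reads starting at -1 and in 69.0%, 75.9%, 62.9% and 66.2% of those starting at 0. The main forms were the 22 nt and 21 nt sequences printed above, which share their last base. Their seeds overlap by all but 1 base at each side.

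Ends were next compared between the arms of a hairpin, since both arms of miR-140 were measured at both ends. On the DROSHA side, the 5p arm started at 0 in at least 98.7% of reads and the 3p arm ended 2 nt past its annotated end in 76.2 to 80.4 percent. On the DICER side, the 5p arm ended at its annotated end in 90.4%, 86.7%, 88.5% and 88.8% of reads, and the 3p arm started at +1 or 0 as given above. The second start of miR-140 was therefore measured on the DICER side, with no matching second end on the 5p arm, whose next most frequent ends held 3.5 to 6.05 percent of reads. In the secondary structure predicted by RNAfold, the 5p arm ending at its annotated end reached 2 nt past the base paired with start +1 of the 3p arm and 1 nt past the base paired with start 0. On the DROSHA side of the same structure, the most frequent end of the 3p arm reached 3 nt past the base paired with the first base of the 5p arm. Mapping allowed mismatches at the 3p end, and whether the listed 3p ends match the hairpins was not tested. In the structure predicted for MIR101-1, the most frequent end of hsa-miR-101-5p reached 1 nt past the base paired with the main start of hsa-miR-101-3p. In that of MIR101-2, the most frequent end of miR-101-2-5p reached 2 nt past it in the wild-type and mutant 1 libraries and 3 nt in mutant 2, on 8 to 21 reads, and no single end was the most frequent in the empty-vector library. In that of MIR203A, the most frequent end of miR-203a-5p lay 1 nt short of the base paired with start 0 of hsa-miR-203a-3p (-1) and 1 nt past the base paired with start +1, and on the DROSHA side the arms' most frequent ends were level (0 nt). The other arm of MIR203A, miR-203a-5p, had 475 to 636 reads, of which 85.9 to 92.9 percent ended 5 nt before the annotated end, the furthest that the table lists, and 52 to 65.3 percent started at -2.

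The 5 miRNAs spanned a wide range of abundance, and their order was the same in the 4 libraries. Levels are given as reads in 1000000 reads of untransfected miRNAs. hsa-miR-203a-3p was highest, at 1170 in the empty-vector library, 1106 in the wild-type library, 803 in mutant 1 and 971 in mutant 2, and ranked 59 to 77 among the 1315 to 1354 untransfected miRNAs detected. hsa-miR-140-3p followed at 922, 896, 696 and 865. hsa-miR-101-3p, whose count is uncertain as stated above, was at 168, 158, 175 and 179, hsa-miR-140-5p at 42.7, 40.5, 56.8 and 46.6, and hsa-miR-101-5p at 7.77, 7.52, 7.70 and 8.59. miR-144-3p, whose sequence is related to that of miR-101-3p, had 1 to 4 reads.

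The comparisons between transfections ask whether endogenous miRNAs stayed level while plasmid-borne ones were added. The wild-type library is used in all 3 of them, so they are not independent. With this scaling, no comparison moved any of the 5 past 2-fold. Scaled by miR-16-5p, the study's normalizer, which the pri-mir-16-1 plasmid adds to, all 5 were past 2-fold lower for wild type over empty vector (0.458 to 0.474), as were 208 of the 476 miRNAs described next. Over the 476 untransfected miRNAs averaging 50 or more reads, the share past 2-fold was 1.68% higher and 0.21% lower for wild type against empty vector, 0.21% higher and 2.1% lower for mutant 1 against wild type, and 0.21% higher and 0.63% lower for mutant 2 against wild type. For mutant 1 this balance turned with the scaling, from 1 higher and 10 lower to 8 higher and 6 lower by TMM and by DESeq2 size factors. By all miRNA reads it turned for wild type against empty vector, from 8 higher and 1 lower to 1 higher and 6 lower. For mutant 2 against wild type it turned by all miRNA reads from 1 higher and 3 lower to 2 higher and 1 lower. Wild type over empty vector gave ratios of 0.939 to 0.971 for the 5 miRNAs, and mutant 2 over wild type gave 0.878 to 1.15. The direction of the latter turned with the scaling: all 5 were above 1 by all miRNA reads (1.10 to 1.44) and below 1 by miR-16-5p (0.734 to 0.962).

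For mutant 1 over wild type, the arms of miR-140 differed in direction in this scaling. hsa-miR-203a-3p had a ratio of 0.726 (0.708 to 0.744) and hsa-miR-140-3p of 0.777 (0.756 to 0.799), whereas hsa-miR-140-5p had 1.40 (1.25 to 1.57). hsa-miR-101-3p had 1.11 (1.05 to 1.18) and hsa-miR-101-5p 1.03 (0.776 to 1.35), an interval that includes no change. On the log2 scale the ratios of hsa-miR-203a-3p, hsa-miR-140-3p and hsa-miR-140-5p were -0.46, -0.36 and 0.49, beside a median of -0.15 over the 476 miRNAs, which was 0.07 by TMM and 0.05 by DESeq2 size factors. These 3 kept their side of 1 under each of the 4 other scalings tried, with ranges of 0.718 to 0.845, 0.769 to 0.905 and 1.39 to 1.63. Separated by start, hsa-miR-140-3p had a ratio of 0.900 (0.856 to 0.946) for start 0 and 0.727 (0.703 to 0.752) for start +1, and hsa-miR-203a-3p had 0.763 (0.738 to 0.790) and 0.677 (0.652 to 0.703). Start +2 of hsa-miR-140-3p had 0.802 (0.703 to 0.916). The ratio of start 0 of hsa-miR-140-3p turned with the scaling, to 1.05 (0.996 to 1.10) by TMM and 1.03 (0.982 to 1.09) by DESeq2 size factors, while those of start +1 of both miRNAs and of start 0 of hsa-miR-203a-3p stayed below 1 in each of the 4 other scalings. The ratio of start +1 was thus lower than that of start 0 in both, and start +2 lay between them in hsa-miR-140-3p, with an interval that overlaps those of both.

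Start shares were then compared between libraries. The main start of hsa-miR-140-3p, +1, was less frequent in mutant 1 than in the wild-type one (difference -4.43 points, -5.72 to -3.14), and start 0 of hsa-miR-203a-3p was more frequent (difference 2.78 points, 1.54 to 4.02). The other differences of these main starts had intervals that include 0: -0.968 and 0.548 points for wild type against empty vector and -0.480 and -0.183 points for mutant 2 against wild type. Start 0 of hsa-miR-140-3p was more frequent in the wild-type than in the empty-vector library (difference 1.22 points, 0.0828 to 2.36) and in mutant 1 than in the wild type (4.33 points, 3.08 to 5.57). hsa-miR-101-3p and hsa-miR-140-5p differed by at most 1.05 points. None of these 4 passed 5 points in any comparison, where 6.01% of the 283 arms did for wild type against empty vector, 7.42% for mutant 1 against wild type and 4.59% for mutant 2 against wild type. hsa-miR-101-5p, with too few reads to be among the 283, had a lower share at -1 in the wild-type library than in the empty-vector library (difference -18.3 points, -31.4 to -4.29), and differences of 1.29 (-12.3 to 14.7) and 8.70 points (-4.57 to 21.4) for mutant 1 and mutant 2 against wild type. Over the 4 libraries, the main start of hsa-miR-140-3p ranged over 5.40 points and that of hsa-miR-203a-3p over 3.33, with 32 and 66 of the 283 arms ranging more widely and a median range of 0.806 points.

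Ends also differed across the libraries. In mutant 1, the mean 5p start was further upstream than in the wild-type library for 193 of the 283 arms and further downstream for 87, with a median change of -0.00205 nt. The other comparisons leaned the same way, with 171 upstream and 106 downstream for mutant 2 against wild type and 161 and 117 for wild type against empty vector. In mutant 1, changes of hsa-miR-140-3p and hsa-miR-203a-3p were -0.0428 and -0.0368 nt, and 31 and 36 arms moved further upstream than they did. Of the 63 arms with a second start in the wild-type library, 44 moved upstream and 19 downstream in mutant 1, and 36 and 27 in mutant 2. Of the 63 arms with a second start in the empty-vector library, 38 moved upstream and 25 downstream in the wild-type library. In mutant 1, mean 3p ends lay further downstream by a median of 0.0509 nt, and reads of at least 23 nt made up 50.3% of untransfected reads, against 46.2% in the wild-type library, 45.9% in the empty-vector library and 48.5% in mutant 2. The part of these library-wide differences in the values of the 2 miRNAs was not tested.

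The ratio of 3p to 5p reads of miR-140 was lower in mutant 1 than in the other 3 libraries. It was 21.6 in the empty-vector library (19.9 to 23.5), 22.1 in the wild-type one (20.2 to 24.2), 12.3 in mutant 1 (11.4 to 13.2) and 18.6 in mutant 2 (17.2 to 20). With only the reads at the most frequent starts it was 15.06, 15.11, 7.92 and 12.7 in the same order, again lowest in mutant 1. Its arms thus moved in opposite directions in mutant 1, as the ratios above show. Among 71 untransfected hairpins with both arms measured, the log2 change of this ratio from wild type to mutant 1 was -0.85 for miR-140, with 5 hairpins changing more and a median of -0.02. From wild type to mutant 2 it was -0.25, with 13 changing more, and from empty vector to wild type it was 0.03, with 63 changing more. For miR-101 the ratio was 21.6 (17.8 to 26.3), 21.0 (17.0 to 25.9), 22.8 (18.8 to 27.6) and 20.9 (17.5 to 24.9), with intervals that overlap. This ratio is not a measure of 1 hairpin: its 3p reads have the uncertainty stated above and can come from MIR101-1 or MIR101-2, and its 5p reads are from MIR101-1 alone. It was 10.5 to 11.5 with only the 3p reads ending at least 2 nt past the annotated end, and 35.1 to 41.0 with only the reads at the most frequent starts.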

How the data were processed

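Raw read counts for each miRNA isoform were taken as the authors deposited them, with blanks read as 0. Per the study's methods, reads were trimmed with cutadapt to 18 to 26 nt, quality filtered (score of 20 over 90 percent of bases), mapped to hg38 with Bowtie2 and assigned to miRBase v22 loci when unambiguous, with mismatches allowed at the 3p-end. Offsets range from -5 to 5 nt. A positive 5p offset was taken as downstream and a negative 3p offset as downstream, the one reading under which all 10981 isoforms with a reference length are 18 to 26 nt long. Shares have Wilson, differences Newcombe and ratios log-normal intervals. Level scaling was by untransfected miRNA reads (1608 of 1644 names), with a minimum mean of 50 reads. Alternatives were all reads, miR-16-5p (the study's normalizer), edgeR 4.0.16 TMM and DESeq2 1.42.0 size factors (R 4.3.3). Other software was Python 3.11.15, pandas 2.3.3, numpy 2.4.6, scipy 1.17.1, matplotlib 3.10.9 and RNAfold 2.7.2. Scripts were tested on simulated counts. Named miRNAs were the 5, arms and paralogs of their hairpins, miR-16-5p, the list of other alternative starts, the markers and the 3 most alike arms. The 5 miRNAs and the lists were chosen with earlier results of these data known.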

Additional observations from a re-analysis of the deposited data

How the results depend on the processing

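No paired analysis was possible because each condition has 1 library. The count of 3 miRNAs with a second start held in every library at thresholds of 5 and 20 percent, with isoforms of at least 10 reads only, and with reads at the most frequent 3p end only. The last choice moved the +1 share of hsa-miR-140-3p to 73.8%, 74.1%, 68.6% and 72.5%, the start 0 share of hsa-miR-203a-3p to 57.9%, 56.9%, 62.7% and 58.5%, and that of hsa-miR-140-5p to 100% in the wild-type library. Isoforms of at least 10 reads moved start 0 of hsa-miR-101-3p to 100%, 100%, 99.55% and 100%, and of hsa-miR-140-5p to 100% in the empty vector, wild-type and mutant 2 libraries, since rare starts drop out by construction. Arms with a second start made up 29.8%, 28.9%, 29.55% and 30% of 440 arms with at least 50 reads, and 17.6% and 16.4% of 165 arms with at least 1000 in the empty vector and mutant 1 libraries. Leaving out arms with an arm of another name on the opposite strand, chosen after seeing the data, kept the shares of the 4 libraries within their intervals. Arms whose main start moved fell to 4, 5 and 2 past 10 points and to 2, 3 and 1 with at least 1000 reads, in the order of the comparisons above. Counts past 2-fold depended on the scaling. For wild type against empty vector they were 1 higher and 6 lower by all reads, 0 higher and 208 lower by miR-16-5p, which the plasmids add to, and 3 lower by TMM and 3 by size factors. The median log2 ratio of the 476 miRNAs was -0.95 by miR-16-5p against 0.09 in the scaling reported, and the ratios of the 5 miRNAs were 0.458 to 0.474. Ratios whose interval excluded 1 turned to its other side for mutant 2 over wild type: hsa-miR-140-3p to 1.21 by all reads, 1.02 by TMM and 1.01 by size factors, hsa-miR-203a-3p to 1.10 by all reads, and hsa-miR-101-3p and hsa-miR-140-5p to 0.952 and 0.962 by miR-16-5p. By start, a choice made after seeing the data, start +1 of hsa-miR-140-3p turned to 1.202, 1.01 and 1.004 by all reads, TMM and size factors, and starts 0 and +1 of hsa-miR-203a-3p to 1.096 and 1.102 by all reads. For mutant 1 over wild type, start 0 of hsa-miR-140-3p turned to 1.05 by TMM and 1.03 by size factors. The cause was not tested. For mutant 1 against wild type, TMM and size factors each gave 8 higher and 6 lower. For mutant 2 against wild type, all reads gave 2 higher and 1 lower, and miR-16-5p gave 5 lower. With a mean of at least 10 reads and a pseudocount of 1, the counts higher and lower were 36 and 16, 13 and 53, and 16 and 29, and with no minimum they were 248 and 155, 146 and 292, and 161 and 236, over 777 and 1608 miRNAs. Ratios of 3p to 5p reads at the most frequent starts only were 35.6, 35.1, 38.9 and 41.0 for miR-101 and 15.06, 15.11, 7.92 and 12.7 for miR-140. Chosen after seeing the data, reads of hsa-miR-101-3p ending at least 2 nt past the annotated end gave 10.9, 10.5, 11.5 and 10.5. Depth limits hsa-miR-101-5p most, with 92 to 130 reads.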
